A study of Mus musculus with 28 samples.

Results

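Tight junctions close the gap between neighbouring epithelial cells at their apical rim, and 34 genes for their membrane proteins, their cytoplasmic scaffolds and the apical polarity complexes were followed among 50600 genes counted. The members were picked by name from the known composition of these structures: 15 claudins, 3 MARVEL-domain proteins, 4 immunoglobulin-domain proteins of the JAM and CAR family, 5 plaque scaffolds, 6 polarity proteins and the tricellular receptor Lsr. Mammary glands of adult C57BL/6 females carried a Cre driven by Pdgfrα that switched a tdTomato reporter to GFP, so GFP marked every cell that had expressed Cre at some point and all its descendants, and tdTomato marked the remaining cells. GFP+ and tdTomato+ luminal and stromal cells were sorted from each of 4 untreated mice and 3 mice given slow-release pellets of 17β-estradiol plus progesterone (E+P), which gave 28 libraries in 8 groups. Cells positive for CD31, CD45 or Ter119 had been sorted away, and EpCAM and CD49f separated luminal from stromal cells, so Epcam differed between lineages by the sort; it was counted only within the sum of 6 luminal epithelium markers. RNA integrity ranged from degraded to intact, and stranded total-RNA libraries made with a kit for very small inputs were read from both ends.

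In a duct or alveolus the junctional belt holds milk in the lumen, and the mix of claudins sets which ions and solutes leak between cells. Mesenchymal cells have no such belt, so its genes are of interest in GFP+ luminal cells, whose label traces back to a gene of the stroma. Estrogen and progesterone remodel the luminal layer before milk is made, and the permeability of the belt changes along the way.

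Among the 34 members, 32 passed the count filter when all libraries were fitted, 29 passed in the luminal fit and 26 in the stromal fit. Cldn9 and Cldn18 passed nowhere: no library held more than 0.530 CPM (counts scaled to effective library size) of Cldn9 or 0.367 CPM of Cldn18. Cldn5, Cldn11 and Jam3 dropped out of the luminal fit for want of reads, and Cldn2, Cldn6, Cldn7, Cldn8, Cldn23 and Pard6b dropped out of the stromal fit. Calls below are those of edgeR's quasi-likelihood test at a Benjamini-Hochberg adjusted p under 0.01 over all genes tested, and the same test gave every fold change and standard error (SE). Where libraries are described as separated or without overlap, the share of all genes so separated was not counted.

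Where a gene of a marker list is named as the highest, it had the highest mean CPM, without correction for length. Levels of members were compared with each other only as CPM per kb of exon. On that scale the luminal libraries carried a nearly complete junction, led by Cldn4 and Cldn3, which help close the paracellular path, at means of 197 and 118 over 14 libraries. Next came the virus-receptor adhesion protein Cxadr at 74.0, the atypical protein kinase C gene Prkci at 50.7, and the scaffolds that tie the membrane proteins to actin: Cgnl1 at 48.1, Tjp1 at 40.3, Cgn at 30.2 and Tjp3 at 22.6. Lsr, which marks corners where 3 cells meet, stood at 36.9, Cldn7 at 29.4, the homophilic adhesion gene F11r at 27.2 and occludin (Ocln) at 26.0. The remaining MARVEL genes, tricellulin (Marveld2) and Marveld3, read 16.2 and 12.9; the multi-PDZ polarity adaptor Patj read 14.7, the PAR complex members Pard6b and Pard3 11.9 and 10.2, and the apical determinant Crb3 10.3. Prkcz, the other atypical kinase, lay at 2.07, so luminal cells held far more Prkci than Prkcz transcript. In stroma the order was different: the angiomotin-like scaffold Amotl1 (21.7) and Tjp1 (19.7) led, followed by Jam3 (13.9), Cgnl1 (9.17), Prkci (9.10) and Pard3 (9.08), while Ocln, Cldn7, Crb3 and Marveld3 read 0.178, 0.159, 0.228 and 0.135. The map of group means shows the same split across all 8 groups.

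**Figure D1:**
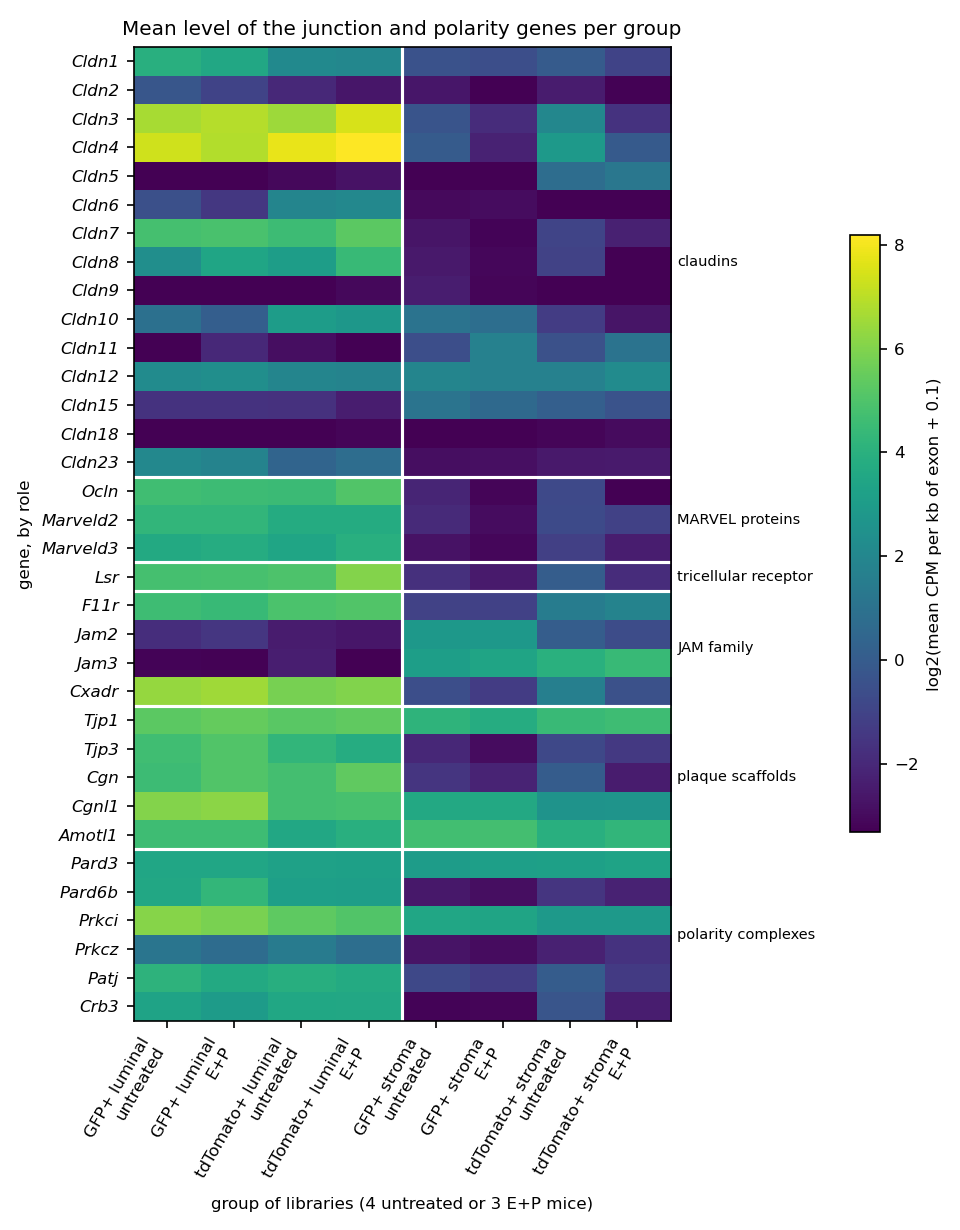
Level of each of the 34 junction and polarity genes in the 8 groups, drawn as log2 of the mean CPM per kb of exon plus a small constant. Groups run along the horizontal axis and genes down the vertical axis.

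The 15 claudins were summed per kb to see what the claudin pool was made of. In luminal cells Cldn4 and Cldn3 supplied most of it: 49.9% and 31.6% in untreated GFP+ cells, 60.8% and 24.7% in untreated tdTomato+ cells. After E+P the pair lay close in GFP+ cells, with Cldn3 at 40.4 ± 5.67% and Cldn4 at 38.5 ± 7.95%, and in tdTomato+ cells Cldn4 stood at 53.0% and Cldn3 at 32.3%; the shares were not tested. The summed level in tdTomato+ luminal cells was 370 ± 22.2 (mean ± SD, CPM per kb) untreated and 548 ± 30.3 after E+P, and in GFP+ luminal cells 322 ± 49.3 and 296 ± 27.5; these sums were not tested. The stromal pool was far smaller, 10.8 ± 2.63 in untreated GFP+ and 19.7 ± 10.2 in untreated tdTomato+ cells. Untreated GFP+ stroma drew it from Cldn12 (34.8%), Cldn15 (19.3%) and Cldn10 (18.7%); the mean share of Cldn11 was 5.21% untreated and 30.6% after E+P, when Cldn11 itself was not called. In untreated tdTomato+ stroma the largest shares were Cldn4 at 26.97 ± 26.6% and Cldn12 at 21.7 ± 13.8%, and after E+P Cldn12 (43.4%), Cldn5 (19.4%) and Cldn11 (16.9%) led.

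**Figure D2:**
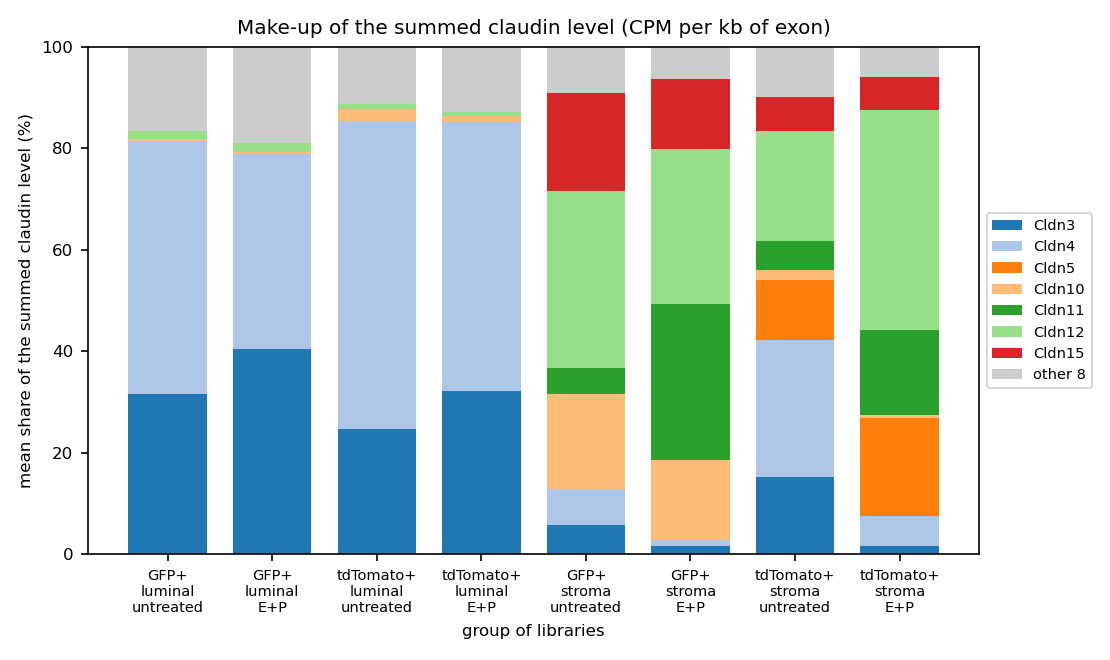
Make-up of the claudin pool in the 8 groups. The vertical axis is the mean percentage of the summed level of 15 claudins in CPM per kb of exon.

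The epithelial junction set was present in luminal cells of both labels and nearly missing from stroma. Every MARVEL gene, Lsr, Cgn, Tjp3 and the apical polarity genes Pard6b, Patj and Crb3 separated the 14 luminal from the 14 stromal libraries without overlap. A smaller group ran the other way, and Cldn12, Pard3 and Amotl1 hardly differed between lineages. By count, 28 of 32 tested members were called, 24 higher and 4 lower in luminal cells, where 63.5% of all 19569 genes tested were called, 30.5% higher and 33.0% lower. The median log2 fold change of members was 4.81, against -0.02 for all genes tested. Ocln ran from 85.3 to 151 CPM in luminal libraries and from 0 to 3.98 CPM in stromal libraries, a log2 fold change of 9.58 (SE 0.421, adjusted p 1.5e-14). Cldn7 covered 34.5 to 86.1 against 0 to 1.53 CPM (log2 fold change 8.51, SE 0.354, adjusted p 2.6e-16), and Cldn3 99.5 to 232 against 0 to 10.5 CPM (7.65, SE 0.415, adjusted p 1.2e-13). Cldn4 reached 176 to 571 CPM in luminal and 0 to 25.2 CPM in stromal libraries (7.70, SE 0.569, adjusted p 3.7e-11). Cldn3, Cldn4, Cldn7 and Ocln therefore did not overlap between lineages, and the stromal maxima all came from untreated tdTomato+ cells. Crb3 (7.25), Lsr (7.24), Tjp3 (7.24), Cgn (7.13), Pard6b (6.84), Cxadr (6.59) and Marveld2 (6.57) had log2 fold changes of like size, while Patj (4.999), F11r (4.62) and Prkcz (4.51) came next. The scaffolds and kinase that many cell types use differed least among the genes called higher: Prkci 2.43, Cgnl1 2.33 and Tjp1 1.08.

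Among the low-abundance claudins, Cldn6 (6.72), Cldn23 (5.35), Cldn2 (3.74), Cldn1 (3.60) and Cldn10 (2.62) were higher in luminal cells by the same log2 measure, and Cldn8, a claudin of tight segments, by 8.06. Ranges of Cldn1, Cldn2, Cldn6 and Cldn10 overlapped between lineages. Jam3, an adhesion protein of non-epithelial cells, stood at 24.9 to 86.7 CPM in stroma and at no more than 1.23 CPM in any luminal library (log2 fold change -10.31, SE 0.465, adjusted p 9.1e-15). Jam2 (-4.15), Cldn11 (-6.13) and Cldn15 (-2.76) were also lower in luminal cells, with overlapping ranges: Jam2 spanned 0.206 to 1.66 CPM in luminal and 0.543 to 49.2 CPM in stromal libraries. Cldn12 read 13.1 to 23.9 against 12.3 to 22.5 CPM (0.19, adjusted p 0.0292), Pard3 125 to 192 against 111.4 to 155 CPM (0.15, adjusted p 0.0162), and Amotl1 62.4 to 275 against 121 to 282 CPM (-0.24, adjusted p 0.127). These 3 genes overlapped widely and were not called. Without untreated mouse 4, Amotl1 was called lower (-0.39, adjusted p 0.00213), and Pard3 was called higher without untreated mouse 2 (adjusted p 0.00975) and without the low-count filter. The edgeR estimate of Cldn5 across lineages, -2.77, had an SE of 6968 (adjusted p 1.00), while DESeq2 and limma-voom called it lower in luminal cells. All 28 calls stood under each other scaling, filter and tool and with each mouse left out. Scaling to library size alone moved the median of all genes from -0.02 to 0.27 and brought Cldn12 and Pard3 over the line as higher. Reads of luminal epithelium markers (6 of 6 genes with counts) summed to 21.7 to 538 CPM in untreated tdTomato+ stroma. Krt18 was the highest in CPM, at a mean of 65.1. The part of these markers in the stromal values was not tested. In bulk libraries, fewer cells of a type and less RNA per cell cannot be told apart.

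GFP+ luminal cells, the progeny of Cre-expressing cells, and tdTomato+ luminal cells held junction genes in different amounts. Cells with GFP held more of the scaffolds Cgnl1 and Tjp3 and of the polarity genes Pard6b and Prkci, and tdTomato+ cells held more F11r and Lsr. Of 8 claudins called, 4 were higher in GFP+ cells (Cldn1, Cldn2, Cldn12 and Cldn23). The other 4 were higher in tdTomato+ cells (Cldn4, Cldn6, Cldn8 and Cldn10). Core genes such as Ocln, Cldn3, Cldn7, Tjp1, Cgn, Patj and Marveld3 were not called. Over both treatments, 17 of 29 tested members were called, 11 higher and 6 lower in GFP+ cells, where 34.7% of all 16538 genes tested were called, 15.7% higher and 19.0% lower; the median log2 fold change was 0.07 for members and 0.00149 for all genes.

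Cgnl1 showed the clearest gap of any scaffold. It read 501, 679, 423 and 455 CPM in untreated GFP+ luminal libraries and 216, 162, 194 and 265 CPM in untreated tdTomato+ libraries. After E+P the values were 500, 602 and 622 CPM in GFP+ and 215, 217 and 227 CPM in tdTomato+ cells. Each GFP+ library lay above each tdTomato+ library (log2 fold change 1.32, SE 0.124, adjusted p 2.7e-06). Cldn10, which forms paracellular ion pores, ran the other way with 6.21, 2.52, 7.996 and 1.89 CPM in untreated GFP+ against 21.9, 21.4, 15.1 and 24.9 CPM in untreated tdTomato+ cells, and 3.13, 2.96 and 1.58 against 15.8, 20.9 and 15.1 CPM after E+P. The 2 subsets did not overlap, and GFP+ libraries 2 and 4 of the untreated mice were the lowest of their group (-2.48, SE 0.297, adjusted p 2.2e-05). Cldn6, a claudin of embryonic epithelia, stood at 2.34, 0.101, 1.54 and 0.0786 CPM in untreated GFP+ and at 9.45, 5.29, 5.71 and 5.16 CPM in untreated tdTomato+ cells; after E+P it was 0.680, 0.377 and 0.291 against 6.81, 8.76 and 5.52 CPM. There was no overlap here either, though untreated GFP+ libraries 1 and 3 sat well above 2 and 4 (-3.31, SE 0.513, adjusted p 1.6e-04). Untreated GFP+ libraries 1 and 3 were also the ones with the most hormone-sensing luminal markers, 1174 and 1840 CPM summed over 6 of 6 genes, against 424 and 272 CPM in libraries 2 and 4.

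Tjp3 spanned 78.2 to 134 CPM in GFP+ and 49.4 to 85.8 CPM in tdTomato+ luminal cells (log2 fold change 0.78, SE 0.109, adjusted p 5.8e-05), higher in GFP+ cells of 7 of 7 mice with overlap across mice. Pard6b (0.74) and Prkci (0.74) were higher by like amounts, in 6 and 7 of 7 mice, and Prkci spanned 246 to 474 against 169 to 282 CPM. Cldn4 was lower in GFP+ cells in all 7 mice, 176 to 377 against 332 to 571 CPM (-0.94, SE 0.129, adjusted p 4.9e-05), as was F11r, 53.3 to 72.4 against 71.0 to 94.0 CPM (-0.49, SE 0.0753, adjusted p 1.2e-04). Lsr was lower in GFP+ cells of 6 of 7 mice, by -0.73 over both treatments (SE 0.0993, adjusted p 4.5e-05). Untreated means lay close, 59.99 against 68.9 CPM, and treated means apart, 61.1 against 141 CPM. These 9 calls, from Cgnl1 to Lsr, held under every setting and with any mouse left out. The other 8 did not. Cldn1, 50.5 to 93.4 against 2.62 to 34.2 CPM without overlap, was higher in GFP+ cells by 1.69 (adjusted p 0.00318), but it missed the threshold without the first E+P mouse (1.82, adjusted p 0.0130), the second (1.69, adjusted p 0.0195), the third (1.65, adjusted p 0.0193) or untreated mouse 1 (1.68, adjusted p 0.0119). Cldn2 fell short without the second E+P mouse (2.17, adjusted p 0.0102), and so did Cldn8 (-0.82, adjusted p 0.0413), Cldn23 (1.41, adjusted p 0.0157) and Jam2 (1.56, adjusted p 0.0243). Cxadr did so without the first E+P mouse (0.56, adjusted p 0.0126). Without the third E+P mouse Cldn8 (-0.74, adjusted p 0.0475), Cldn12 (0.38, adjusted p 0.0211), Cldn23 (1.22, adjusted p 0.0209), Marveld2 (0.40, adjusted p 0.0117), Jam2 (1.41, adjusted p 0.0303) and Cxadr (0.53, adjusted p 0.0172) were no longer called. Untreated mice mattered too: Cldn8 (-0.91, adjusted p 0.0174), Cldn12 (0.36, adjusted p 0.0160) and Cldn23 (adjusted p 0.0121) were not called without mouse 1, Jam2 (1.42, adjusted p 0.0168), Cldn23 (adjusted p 0.0111) and Cxadr (0.47, adjusted p 0.0101) without mouse 2, and Cldn8 (-0.83, adjusted p 0.0136) and Cxadr (0.49, adjusted p 0.0135) without mouse 4. With mouse as a block, Cldn8 dropped out (adjusted p 0.0112) while Crb3 (-0.41, adjusted p 0.00449) and Amotl1 (0.91, adjusted p 0.00622) were added. Scaling to library size alone shifted the median of all genes to 0.14 and also ended the call of Cldn8.

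Markers of cell types also differed between the luminal subsets. Luminal progenitor markers had 6 of 6 genes present, with Kit the highest in CPM. They summed to 2669, 3173, 1943 and 2658 CPM in untreated GFP+ and to 663, 224, 554 and 884 CPM in untreated tdTomato+ cells. Hormone-sensing markers, with Prlr the highest in CPM, summed to 1174, 424, 1840 and 272 CPM in untreated GFP+ cells. In untreated tdTomato+ cells they summed to 4106, 5294, 4612 and 3544 CPM. Basal epithelium markers (6 of 6 with counts, 3 of 6 called higher in GFP+ cells) summed to 52.0, 114, 63.7 and 65.0 CPM in untreated GFP+ and 12.5, 9.49, 20.2 and 23.3 CPM in untreated tdTomato+ cells. Oxtr alone averaged 41.9 of the mean sum of 73.7 CPM in untreated GFP+ and 6.17 of 16.4 CPM in untreated tdTomato+ cells. None of the progenitor, hormone-sensing and basal sums overlapped between the labels in untreated mice. Fibroblast markers (6 of 6 with counts, 1 called higher in GFP+ cells) overlapped, at 35.1 to 108 CPM in untreated GFP+ and 7.10 to 73.5 CPM in untreated tdTomato+ cells. After E+P their sum was lower in GFP+ cells, 21.9 to 24.7 against 27.2 to 57.5 CPM, without overlap. Dcn alone averaged 35.5 CPM of the mean sum of 42.1 CPM in treated tdTomato+ cells, where 2 of 6 markers passed 1 CPM. In treated GFP+ cells 5 of 6 passed it, and the highest, Col3a1, averaged 6.32 CPM. Over both treatments the median log2 fold change of the list was 1.99, higher in GFP+ cells. How much of the claudin and scaffold differences followed from these cell types was not tested.

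After E+P, 6 junction genes were called higher in tdTomato+ luminal cells. The claudins Cldn3, Cldn7 and Cldn8, occludin, the plaque protein cingulin (Cgn) and Lsr all went up, and no member was called lower. In each of these 6 genes all 3 treated libraries lay above all 4 untreated ones, as the plotted values show. These genes had been called on the same values, so the separation is no further evidence. Of 29 tested members, 6 were called higher and 0 lower, where 14.1% of all genes tested were called, 7.63% higher and 6.44% lower; members had a median log2 fold change of 0.10 and all genes -0.05. Cldn3 read 106, 115, 123 and 115 CPM untreated and 227, 232 and 209 CPM after E+P. Values were tight within groups, and the groups stood apart (log2 fold change 0.99, SE 0.154, adjusted p 4.8e-04). Lsr went from 65.0, 77.9, 68.6 and 64.1 CPM to 106, 143 and 175 CPM. Treated libraries spread more than untreated ones without meeting them (1.06, SE 0.138, adjusted p 1.3e-04). Cldn8 went from 18.6, 18.9, 14.3 and 27.5 CPM to 44.7, 52.4 and 56.1 CPM, the largest change of the 6, with untreated library 4 the highest of its group (1.39, SE 0.316, adjusted p 0.00619). Cldn7 read 47.0, 34.5, 49.8 and 51.7 CPM untreated and 86.1, 71.5 and 71.8 CPM treated, with untreated library 2 the lowest (0.77, SE 0.173, adjusted p 0.00507). Ocln read 100, 86.7, 96.3 and 105 CPM against 151, 134 and 139 CPM, again without overlap (0.57, SE 0.120, adjusted p 0.00329). Cgn read 161, 165, 137.98 and 173 CPM against 206, 231 and 305 CPM, with treated library 3 the highest (0.66, SE 0.143, adjusted p 0.00410).

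**Figure D3:**
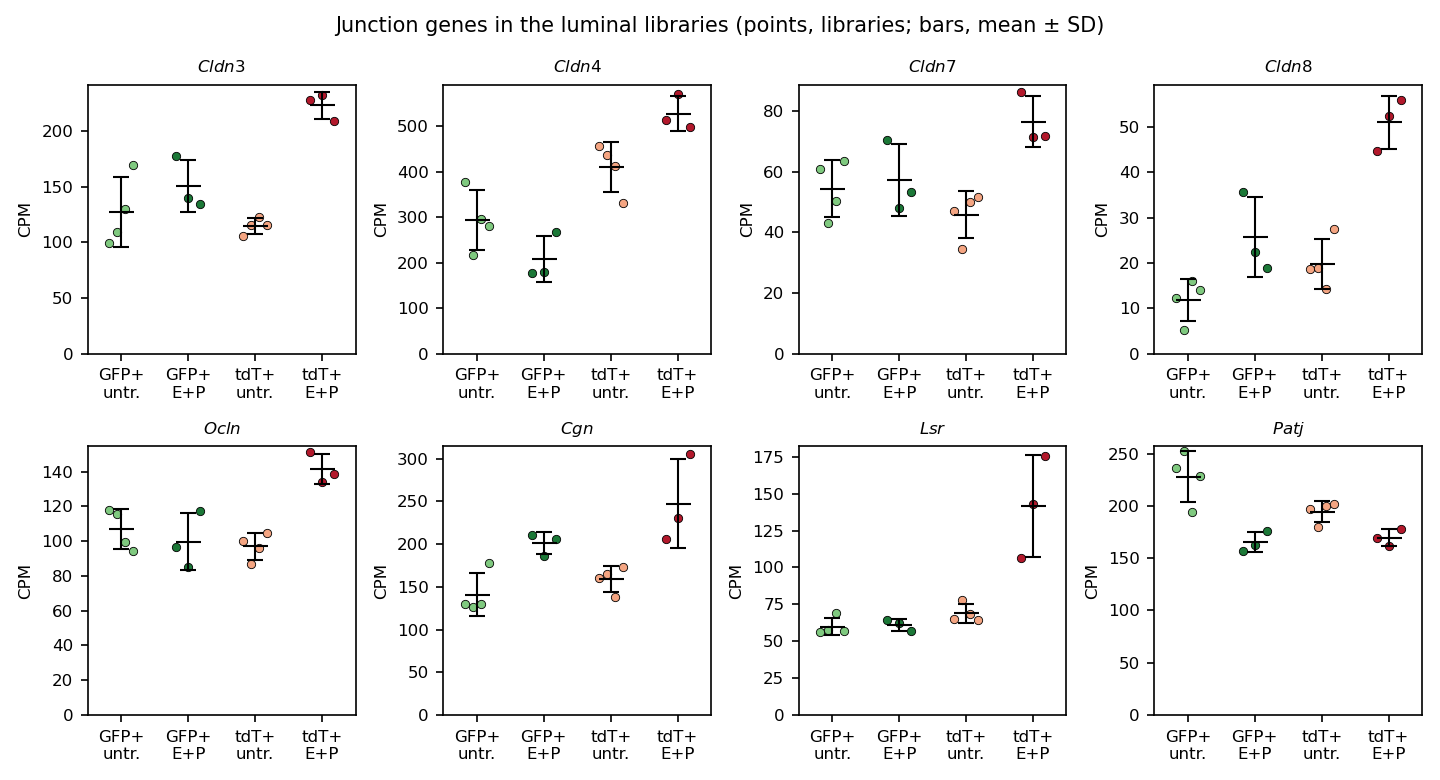
CPM of 8 junction genes in the luminal libraries. Points are libraries and bars are mean ± SD of GFP+ and tdTomato+ cells, untreated and after E+P.

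Cldn4, the most abundant claudin, was 456, 437, 414 and 332 CPM untreated and 513, 571 and 499 CPM after E+P in the same cells; the groups did not overlap, but the change of 0.39 was not called (SE 0.1804, adjusted p 0.123). Marveld3 (0.53, adjusted p 0.0160) was likewise separated but not called, and Tjp3 (-0.44, adjusted p 0.0498), Prkcz (-0.66, adjusted p 0.0407) and Patj (-0.17, adjusted p 0.205) were separated downward. Tjp1 (0.17), Pard3 (-0.03), Pard6b (0.00292), Marveld2 (0.00115), Cgnl1 (0.10) and Crb3 (0.08) had small estimates and were not called. Only Cldn3 and Lsr were called under every setting and without any 1 mouse. Leaving out the first E+P mouse brought Cldn7 to 0.65 (adjusted p 0.0206), Cldn8 to 1.46 (adjusted p 0.0116) and Ocln to 0.50 (adjusted p 0.0271), each short of the threshold. Leaving out the second did so for Cldn7 (0.80, adjusted p 0.0167), Cldn8 (1.35, adjusted p 0.0340) and Cgn (0.70, adjusted p 0.0180), and leaving out the third for Cldn7 (0.81, adjusted p 0.0183), Cldn8 (1.32, adjusted p 0.0277) and Cgn (0.49, adjusted p 0.0394). Without untreated mouse 1, Cldn7 (0.79, adjusted p 0.0149), Cldn8 (1.36, adjusted p 0.0256) and Cgn (0.67, adjusted p 0.0130) were not called. Without untreated mouse 3, Cldn7 (0.81, adjusted p 0.0120), Cldn8 (1.26, adjusted p 0.0173), Ocln (0.56, adjusted p 0.0117) and Cgn (0.59, adjusted p 0.0163) all missed it. Scaling to library size alone moved the median of all genes from -0.05 to -0.27 and turned 6 higher and 0 lower into 2 of 4 called higher: Cldn3 and Lsr stayed, Cldn7 (adjusted p 0.0401), Cldn8 (0.0166), Ocln (0.0548) and Cgn (0.0350) left, and Tjp3 (-0.66, adjusted p 0.00448) and Prkcz (-0.87, adjusted p 0.00773) entered as lower. That scaling called 2896 of all genes tested, against 2327 in the main fit. Among markers, the progenitor sum went from 663, 224, 554 and 884 CPM to 203, 186 and 119 CPM, with 3 of 6 called lower. The hormone-sensing sum went from 4106, 5294, 4612 and 3544 CPM to 2024, 3007 and 3240 CPM, with 0 of 6 called. Luminal epithelium sums overlapped, with 7949, 7852, 8044 and 7535 CPM untreated and 7667, 7165 and 7443 CPM treated, and 0 of 6 called. The basal sum went from 12.5, 9.49, 20.2 and 23.3 CPM to 64.2, 43.4 and 36.8 CPM, with 2 of 6 markers called higher. Trp63 was its highest gene in CPM after E+P, at 22.2 of the mean sum of 48.1 CPM. All 6 genes of each of these lists had counts, and their part in the rise of the called junction genes was not tested.

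In GFP+ luminal cells few junction genes were called after the same treatment. Only Patj was called, and it went down; Cldn8, Cgn, Pard6b and Tjp1 (0.17, adjusted p 0.142) were separated upward but short of the threshold. Of 29 tested members, 0 were higher and 1 was lower, where 5.96% of all genes tested were called, 3.17% higher and 2.78% lower. The unadjusted p of the edgeR test was under 0.05 for 8 of 29 members and for 4940 of all 16538 genes tested. The median log2 fold change was 0.00217 for members and -0.03 for all genes. Patj read 237, 252, 194 and 228 CPM untreated and 157, 163 and 176 CPM after E+P. The groups did not overlap (log2 fold change -0.46, SE 0.0958, adjusted p 0.00591), yet without the second E+P mouse the change was -0.44 (adjusted p 0.0510) and no longer called. The call also ended without the first (-0.46, adjusted p 0.0361) or the third E+P mouse (-0.49, adjusted p 0.0241) and without untreated mouse 1 (-0.45, adjusted p 0.0232), 2 (-0.41, adjusted p 0.0144) or 4 (-0.47, adjusted p 0.0132). Cgn went from 129, 126, 130 and 178 CPM to 210, 186 and 206 CPM (0.51, SE 0.144, adjusted p 0.0288), and Cldn8 from 12.2, 5.13, 15.9 and 14.1 CPM to 35.7, 22.4 and 19.0 CPM (1.10, SE 0.321, adjusted p 0.0363). Pard6b, at 46.4, 28.8, 35.8 and 47.5 CPM untreated and 59.5, 55.9 and 81.0 CPM treated, was separated as well (0.72, SE 0.171, adjusted p 0.0125). DESeq2 called Pard6b, Cldn8 and Patj, limma-voom called Patj alone, and edgeR fitted to only these 2 groups called 0 members. Of all genes tested they called 2035, 972 and 560, against 985 in the main fit. Scaling to library size alone moved the median of all genes to -0.14. Luminal epithelium markers (6 of 6 with counts) read 7677, 5636, 6299 and 6728 CPM untreated and 5043, 4334 and 5585 CPM treated, and progenitor markers 2669, 3173, 1943 and 2658 against 1520, 1390 and 1497 CPM. Hormone-sensing markers went from 1174, 424, 1840 and 272 CPM to 298, 206 and 170 CPM, with 2 of 6 called lower, and basal markers from 52.0, 114, 63.7 and 65.0 CPM to 135, 135 and 122 CPM, with 0 of 6 called. Oxtr alone averaged 92.0 of the mean basal sum of 131 CPM after E+P. The part of these markers in the changes was not tested.

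Whether the 2 luminal subsets answered E+P differently was tested directly as the response of GFP+ minus that of tdTomato+ cells. In the main fit, which had no mouse term, Lsr was the only member called, 1 of 29 tested. Of all genes tested 2.27% were called, 0.786% higher and 1.49% lower. In GFP+ cells Lsr was flat, at 56.4, 57.5, 68.9 and 57.1 CPM untreated and 64.2, 62.5 and 56.6 CPM treated (log2 fold change 0.02, adjusted p 0.936), set against its rise of 1.06 in tdTomato+ cells. The difference was -1.04 (SE 0.198, adjusted p 0.00703); without the second E+P mouse it was -1.02 (adjusted p 0.0601), without the third -0.78 (adjusted p 0.0587), without untreated mouse 1, 3 or 4 -1.05, -0.96 and -1.03 (adjusted p 0.0257, 0.0234 and 0.0179), and with mouse as a block -1.01 (adjusted p 0.0144), so the call ended each time. Library size alone also ended it, moving the median of all genes to 0.13. For the other genes called in tdTomato+ cells the differences were -0.75 for Cldn3 (adjusted p 0.0574), -0.70 for Cldn7 (0.108), -0.67 for Ocln (0.0304), -0.29 for Cldn8 (0.769) and -0.15 for Cgn (0.723). For Cldn8 and Cgn, neither called in GFP+ cells, the test did not tell the responses apart, and the difference for Patj was -0.30 (adjusted p 0.215). Cldn4 estimates had opposite signs, with no change called in either subset: it went from 377, 217, 296 and 280 CPM to 176, 180 and 266 CPM in GFP+ cells (-0.50, adjusted p 0.0842), a difference of -0.89 (SE 0.257, adjusted p 0.0538). Tjp3 estimates also had opposite signs without a call, 0.41 in GFP+ cells (adjusted p 0.0842) and -0.44 in tdTomato+ cells. Their difference of 0.85 (SE 0.218, adjusted p 0.0315) was not called, except with mouse as a block (0.86, adjusted p 0.00525), without the low-count filter or without untreated mouse 4. Members had a median difference of -0.26, against 0.01 for all genes tested.

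Junction genes differed between the stromal subsets about as often as genes at large. GFP+ stroma carried Jam2, Cldn10 and more Cgnl1, Prkci and Amotl1. Its fibroblast markers (6 of 6 genes, Col3a1 the highest in CPM) summed to a mean of 42278 CPM untreated, against 4004 CPM in tdTomato+ stroma. Cells with tdTomato in stroma carried the endothelial claudin Cldn5 and more F11r, Jam3 and Tjp1. Of 26 tested members, 12 were called (46.2%), 6 higher and 6 lower in GFP+ cells, where 42.0% of all 17783 genes tested were called, 20.6% higher and 21.3% lower; members had a median log2 fold change of -0.66 and all genes -0.01. Cldn5 had 0 reads in all 7 GFP+ libraries, against 5.89, 0.903, 0.465 and 1.85 CPM in untreated and 1.63, 4.94 and 3.06 CPM in treated tdTomato+ stroma. Against a floor of 3 counts summed over all 7 GFP+ libraries, 0.0286 CPM, its level was at least 93.7-fold higher in tdTomato+ cells (adjusted p 2.3e-05), and no library of either subset fell within the range of the other. Jam2, an adhesion protein known from endothelium, read 33.5, 44.1, 41.6 and 49.2 CPM in untreated GFP+ and 7.50, 8.12, 6.17 and 1.17 CPM in untreated tdTomato+ stroma; after E+P it was 46.0, 38.3 and 42.9 against 3.27, 0.543 and 6.12 CPM. These ranges stayed apart (log2 fold change 3.27, SE 0.443, adjusted p 4.3e-05). Cldn10 read 4.24, 4.18, 7.13 and 4.77 against 0.855, 0.361, 1.39 and 0.583 CPM untreated, and 4.14, 5.23 and 3.59 against 0.255, 0.198 and 0 CPM after E+P, also without overlap (3.66, SE 0.433, adjusted p 1.5e-06). The sign was opposite to that in luminal cells, where GFP+ cells held less Cldn10.

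F11r ran from 0.243 to 1.95 CPM in GFP+ and from 3.57 to 13.8 CPM in tdTomato+ stroma (log2 fold change -3.05, SE 0.453, adjusted p 2.3e-05). Jam3 (-0.97, SE 0.162, adjusted p 6.9e-05) and Tjp1 (-0.59, SE 0.0901, adjusted p 3.0e-05) were lower in GFP+ cells of all 7 mice, and Cgnl1 (1.01), Prkci (0.52) and Amotl1 (0.63) higher in all 7. Prkci was not called without the third E+P mouse (0.46, adjusted p 0.0105). Cldn15, 2.60 to 4.995 against 1.10 to 2.80 CPM, was higher in GFP+ cells by 1.04 (adjusted p 0.00446), but was not called without the first (1.11, adjusted p 0.0144), second (1.15, adjusted p 0.0111) or the third E+P mouse (0.87, adjusted p 0.0384), without untreated mouse 3 (0.93, adjusted p 0.0171) or with mouse as a block (adjusted p 0.0139). Marveld2 (-2.66, adjusted p 0.00930) rested on 0 to 0.930 against 0.190 to 3.45 CPM and was lost without the second (-2.02, adjusted p 0.0717) or the third E+P mouse (-2.50, adjusted p 0.0256) and without untreated mouse 2, 3 or 4 (adjusted p 0.0187, 0.0401 and 0.0122). Crb3, with 2 of 7 GFP+ libraries above 0 and none above 0.0609 CPM, reached 2.62 CPM in tdTomato+ stroma (adjusted p 0.00949) and was lost without the first, the second or the third E+P mouse (adjusted p 0.920, 0.0111 and 0.0199) or untreated mouse 4 (0.0107). With mouse as a block Cxadr was added as lower (-1.78, adjusted p 0.00724), and Marveld2 (0.0190) and Crb3 (0.0833) went. Luminal genes were unevenly spread over tdTomato+ stroma: Cldn4 read 2.09, 25.2, 24.4 and 0.194 CPM in the 4 untreated libraries, and the luminal epithelium markers 86.2, 325, 538 and 21.7 CPM. Libraries 2 and 3 were high for both. When those 2 libraries were left out, 9 of 25 tested members were called, where 7127 of all 18517 genes tested were called. Cldn15 (1.01, adjusted p 0.0116) and Marveld2 (-1.69, adjusted p 0.120) were lost, Crb3 failed the count filter, and the other 9 kept their calls. Endothelial markers (8 of 8 with counts) summed to 160, 89.2, 70.6 and 137.5 CPM in untreated tdTomato+ stroma. In untreated GFP+ stroma they summed to 276, 243, 191 and 206 CPM. Tek was the highest in CPM in both, at means of 34.2 and 190. Tek made up most of the GFP+ sum: 1 of 8 markers was called higher and 6 lower in GFP+ cells, with a median log2 fold change of -4.67. After E+P the sums were 122, 313 and 282 CPM in tdTomato+ and 140, 147 and 158 CPM in GFP+ stroma. Lymphatic markers summed to 479, 147, 85.0 and 287 against 13.1, 9.38, 9.75 and 6.05 CPM, with Lyve1 and Mmrn1 at 0 in untreated GFP+ stroma, and pericyte and smooth-muscle markers (8 of 8 with counts) to means of 8247 against 731 CPM untreated. Skeletal-muscle markers (6 of 6 with counts) averaged 5586 against 10.4 CPM in the same groups, with 6 of 6 called lower in GFP+ cells and a median log2 fold change of -13.55. Haematopoietic markers averaged 37.2 CPM in untreated tdTomato+ against 1.02 CPM in untreated GFP+ stroma, although CD45+ cells had been sorted away. Of the 3 tested, 3 were called lower in GFP+ cells, with a median log2 fold change of -4.79. The part of these cell types in Cldn5, F11r and Jam3 levels was not tested.

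**Figure D4:**
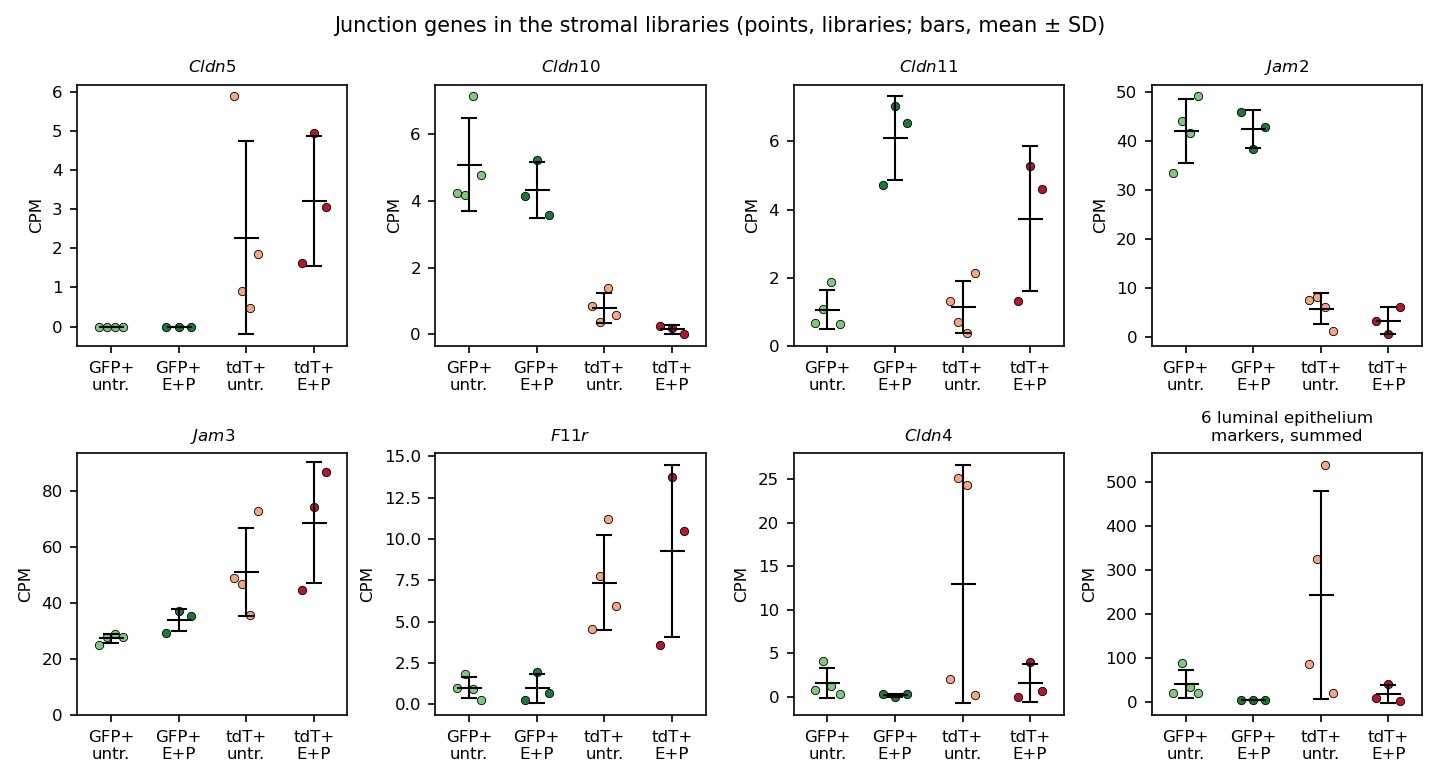
CPM of 7 junction genes and of 6 summed luminal epithelium markers in the stromal libraries. Points are libraries and bars are mean ± SD of GFP+ and tdTomato+ cells, untreated and after E+P.

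E+P left the junction genes of stroma without a call. In GFP+ stroma 0 of 26 tested members were called by edgeR's quasi-likelihood test, where 0.231% of all genes tested were, 0.163% higher and 0.0675% lower. In tdTomato+ stroma it was again 0 of 26, where 0.124% were called, 0.0281% higher and 0.0956% lower; the median log2 fold changes of members were -0.29 and -0.71, against 0.00160 and -0.03 for all genes. At an unadjusted p under 0.05 in this test there were 2 members in GFP+ and 10 in tdTomato+ stroma. Of all 17783 genes tested, 1429 and 2780 were under it. Among the 26 members tested in GFP+ stroma, Cldn5 had 0 reads in both arms and Crb3 1 count in each, so neither could show a change. DESeq2 called 1 and 3 members and limma-voom 0 and 0. Over all genes tested DESeq2 called 192 and 384 and limma-voom 100 and 8, against 41 and 22 in the main fit. The member DESeq2 called in GFP+ stroma was Cldn11, a claudin of myelin and testis, which read 0.681, 1.08, 1.89 and 0.642 CPM untreated and 4.71, 7.02 and 6.54 CPM after E+P. The groups stood apart (2.48, SE 0.579, adjusted p 0.0600; DESeq2 adjusted p 0.00410). In tdTomato+ stroma it read 1.33, 0.722, 0.398 and 2.14 CPM untreated and 1.33, 5.29 and 4.59 CPM treated, with the first treated library inside the untreated range (1.71, SE 0.582, adjusted p 0.156). Schwann-cell markers (7 of 7 with counts) summed to 32.3, 39.6, 25.3 and 36.0 CPM in untreated and 23.5, 22.1 and 27.7 CPM in treated GFP+ stroma; their part was not tested. In tdTomato+ stroma DESeq2 called Ocln (adjusted p 0.00193), Cgn (2.4e-04) and Patj (0.00518), all lower after E+P. Ocln went from 0.0950, 3.34, 3.98 and 0.777 CPM to 0 in all 3 treated libraries (edgeR adjusted p 0.0833). Cgn fell from 4.08, 5.60, 11.3 and 1.17 CPM to 0.561, 0.692 and 0.245 CPM (-3.43, SE 0.761, adjusted p 0.0443), without overlap. Untreated libraries 2 and 3, which carried the most luminal epithelium markers, were the highest for both genes. With these 2 libraries left out, edgeR gave a change of -2.38 for Cgn (adjusted p 0.126) and -5.77 for Ocln (adjusted p 0.181). The Ocln estimate was made against treated libraries with 0 reads. The marker sum itself went from 86.2, 325, 538 and 21.7 CPM to 9.90, 41.5 and 3.24 CPM. Krt8 was the highest in CPM after E+P, at a mean of 5.88. How much of the drop followed from luminal epithelium cells was not tested. In GFP+ stroma the same markers summed to 21.7, 88.6, 33.2 and 19.8 CPM untreated and 5.68, 5.28 and 4.03 CPM after E+P. Their part in the E+P estimates of GFP+ stroma was not tested either.

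Other junction, adhesion and regulatory genes were listed beside the members. Of 33 tested tight-junction and polarity genes outside the member list, 16 were higher and 13 lower in luminal cells (87.9% called, against 63.5% of all genes tested); the angulin Ildr1 (log2 fold change 8.23), Igsf5 (7.47) and Llgl2 (4.65) stood on the luminal side, and Ildr2 (-9.04), Esam (-4.79), Magi2 (-4.07) and Mpdz (-3.02) on the stromal side. Adherens-junction and desmosome genes split 18 to 1 of 20 (95.0% called), with Cdh1 (8.19) on the luminal side and Nectin3 (-3.84) the exception. All 15 epithelial regulators differed, 9 higher, such as Esrp1 (8.0006) and Grhl2 (7.78), and 6 lower, such as Twist1 (-10.38) and Zeb2 (-9.76). Between luminal subsets, Tiam1 (1.93), Pard3b (1.77) and Amot (1.51) were higher and Pard6g (-1.60) and Marveld1 (-1.29) lower in GFP+ cells, along with Pkp1 (1.76) and Ehf (2.16) higher and Dsp (-1.48) and Perp (-1.42) lower. In stroma Esam (-6.80) was lower in GFP+ cells like Cldn5, and Twist1 (2.13) and Zeb1 (1.21) were higher. E+P in tdTomato+ luminal cells raised Pard6g (3.51, adjusted p 8.3e-04), Marveld1 (1.23, adjusted p 4.3e-04), Perp (2.11, adjusted p 2.7e-06), Grhl3 (1.51, adjusted p 0.00653) and Snai1 (4.35, adjusted p 7.2e-06), and lowered Pkp1 (-1.58), Nectin1 (-1.20), Ppl (-0.75), Grhl1 (-0.61) and Magi1 (-0.53). In GFP+ luminal cells it lowered Ildr1 (-0.82), Dsp (-1.25), Pkp1 (-1.51), Nectin1 (-0.76) and Elf3 (-1.11) and raised Esrp1 (0.47), which was called higher in tdTomato+ cells too (0.38). Pkp1 and Nectin1 were called lower in both luminal subsets. The responses of Perp (-1.63, adjusted p 0.00161), Magi1 (0.90, adjusted p 0.00420) and Grhl1 (1.06, adjusted p 0.00678) differed between them. No gene of these lists was called for E+P in either stromal subset.

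Some members share sequence with a neighbour on the opposite strand. In GENCODE M21, 43.6% of Lsr exon bases overlap the antisense gene Gm4673 and 36.2% of Jam3 exon bases overlap Gm48796, with 9.39% of Cxadr and 3.18% of Cldn3 in the same position against Btg3 and Wbscr25. The strand used for counting was not stated, so reads of a gene and its antisense partner could not be told apart in the shared stretch. Gm4673 read 5.52, 5.30, 6.65 and 5.93 CPM in untreated and 4.49, 4.66 and 4.71 CPM in treated tdTomato+ luminal cells, opposite in direction to Lsr. Gm48796 ran the same way as Jam3 between stromal subsets, with 0.366 to 0.775 CPM in GFP+ and 0.889 to 5.14 CPM in tdTomato+ cells. Of all 75-base stretches in a gene's transcripts, 26.1% of Jam3, 25.9% of Lsr, 12.5% of Cgn (shared mostly with BC021767), 11.5% of Prkcz (with Prkcz2), 5.43% of Cxadr, 1.58% of Patj and 0.188% of F11r also occurred in another gene. The other 27 members shared none. BC021767 read at most 11.4 CPM in any library, in a treated tdTomato+ luminal library with 305 CPM of Cgn.

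Promoter sequence was available for 27 members with 41 transcription starts, out of 32851 starts. Cldn8, Cldn9, Cldn23, Marveld3, Jam2, Jam3 and Cxadr had no entry. The motif CAGGTG, cytosine-adenine-guanine-guanine-thymine-guanine, the E-box bound by Snail and Zeb factors, or CACCTG on the other strand, occurred in 15 of 41 member starts (36.6%), against 17.2% of all starts. Members with it were Cldn4, Cldn6, Cldn7, Crb3, F11r, Lsr, Ocln, Pard3, Pard6b, Patj, Prkcz and Tjp3. The GC box GGGCGG, guanine-guanine-guanine-cytosine-guanine-guanine, on either strand occurred in 28 of 41 (68.3%) against 32.7%, and the Grainyhead-like motif AACNGGTT, adenine-adenine-cytosine, any base, guanine-guanine-thymine-thymine, on either strand in 2 of 41 (4.88%; Cgn and Cldn5) against 1.79%. An estrogen response element GGTCANNNTGACC (guanine-guanine-thymine-cytosine-adenine, any 3 bases, then the reverse complement) was found in 0 of 41 and 0.0639% of all starts, and a progesterone response element GNACANNNTGTNC (guanine, any base, adenine-cytosine-adenine, any 3 bases, then the reverse complement) in 0 of 41 and 0.387%. Each match describes sequence and was not tested for binding. Runs just upstream of the starts of genes named above for their response or level follow, from RefSeq on GRCm38.p6 and read toward the gene, with capitals on E-box letters and on the AACNGGTT match of Cgn. They lie at chr5:134985964-134986213 (Cldn3), chr5:134946935-134947184 (Cldn4), chr11:69964529-69964778 (Cldn7), chr13:100552719-100552968 (Ocln), chr3:94786493-94786732 (Cgn), chr4:98395576-98395784 (Patj), chr9:14615007-14615200 (Amotl1) and chr7:30973470-30973719 (Lsr).
Cldn3: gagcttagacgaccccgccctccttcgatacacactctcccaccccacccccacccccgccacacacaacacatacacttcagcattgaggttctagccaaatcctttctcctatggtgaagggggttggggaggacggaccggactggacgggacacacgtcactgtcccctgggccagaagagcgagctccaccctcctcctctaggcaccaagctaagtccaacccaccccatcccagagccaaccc
Cldn4: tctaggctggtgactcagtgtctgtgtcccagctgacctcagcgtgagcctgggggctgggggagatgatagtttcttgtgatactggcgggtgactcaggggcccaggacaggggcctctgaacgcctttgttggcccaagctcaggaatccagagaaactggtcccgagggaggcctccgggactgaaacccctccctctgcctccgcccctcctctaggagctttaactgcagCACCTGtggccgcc
Cldn7: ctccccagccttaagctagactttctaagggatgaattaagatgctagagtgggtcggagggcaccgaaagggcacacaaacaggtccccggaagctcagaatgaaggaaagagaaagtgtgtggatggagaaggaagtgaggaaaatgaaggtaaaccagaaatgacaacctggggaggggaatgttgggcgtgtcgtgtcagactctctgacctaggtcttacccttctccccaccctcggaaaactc
Ocln: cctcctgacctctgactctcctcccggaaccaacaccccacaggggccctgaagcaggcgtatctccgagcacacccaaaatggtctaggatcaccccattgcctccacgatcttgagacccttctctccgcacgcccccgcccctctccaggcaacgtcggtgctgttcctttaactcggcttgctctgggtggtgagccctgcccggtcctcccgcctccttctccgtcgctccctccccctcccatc
Cgn: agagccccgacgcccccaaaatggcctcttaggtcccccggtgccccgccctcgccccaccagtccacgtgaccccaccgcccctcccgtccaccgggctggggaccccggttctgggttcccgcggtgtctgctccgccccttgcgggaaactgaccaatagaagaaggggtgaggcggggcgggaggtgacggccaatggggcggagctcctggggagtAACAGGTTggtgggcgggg
Patj: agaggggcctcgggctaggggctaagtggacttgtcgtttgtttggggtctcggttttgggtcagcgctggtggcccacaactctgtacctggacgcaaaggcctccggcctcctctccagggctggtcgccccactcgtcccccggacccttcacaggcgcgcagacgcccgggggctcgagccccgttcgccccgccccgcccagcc
Amotl1: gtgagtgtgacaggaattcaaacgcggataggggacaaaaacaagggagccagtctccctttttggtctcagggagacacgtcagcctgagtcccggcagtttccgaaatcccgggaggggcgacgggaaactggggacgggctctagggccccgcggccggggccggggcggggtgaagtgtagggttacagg
Lsr: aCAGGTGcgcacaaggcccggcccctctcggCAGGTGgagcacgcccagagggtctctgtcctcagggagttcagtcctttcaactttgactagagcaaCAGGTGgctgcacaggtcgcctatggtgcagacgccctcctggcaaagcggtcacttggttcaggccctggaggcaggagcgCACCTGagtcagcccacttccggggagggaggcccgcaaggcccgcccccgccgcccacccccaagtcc
The Lsr run held 4 E-boxes and the Cldn4 run 1 close to the start, and the runs shown for Cldn3, Cldn7, Ocln, Cgn, Patj and Amotl1 held none. The E-boxes counted for Cldn7, Ocln and Patj lay outside the runs shown.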

How the data were processed

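Raw gene counts were deposited by the authors, who had aligned reads to GRCm38.p5 with STAR 2.5.2a and counted them per gene; the counting strand was not stated. Members and lists were chosen with earlier results of these data known. Genes were named by Ensembl ID without version in GENCODE M21, which held 50376 of 50600 IDs, and a gene was a member when its symbol was on the list. Libraries held 8623383 to 24583803 reads on genes (median 15329083.5), so the floor of 3 counts lay at 0.1163 to 0.3019 CPM per library; the bound on a fold used 3 counts over the group with no reads, and floors cover counting error only. Counts were scaled by TMM (factors 0.8332 to 1.235), filtered with filterByExpr and tested with edgeR 4.0.16 (robust quasi-likelihood F test on group means) in R 4.3.3, with Benjamini-Hochberg adjustment over all genes tested. Fits used all 28 libraries for luminal against stroma and the 14 of each lineage otherwise. DESeq2 1.42.0, limma-voom (limma 3.58.1), other scalings, no filter, mouse as a block and leaving out each mouse were alternatives. On simulated data with known changes, 64.9% of 4-fold and 23.5% of 2-fold changes were called for E+P in tdTomato+ luminal cells, and 44.3% and 5.05% for the difference in response, so genes without a call may still have changed. Libraries of the same mouse resembled each other after group means were removed (mean r 0.157 for the luminal pair, 0.0496 for the stromal pair), against -0.0605 and -0.0194 for different mice, and mouse was therefore a valid block. The main fits had no mouse term and treated libraries of the same mouse as independent. Untreated and E+P replicate numbers named different mice. Within groups r ran from 0.917 to 0.984, and 0 libraries were identical. Levels of members compared with each other were divided by the exon length of all transcripts merged. Summaries used Python 3.11.15, pandas 2.3.3 and numpy 2.4.6, and figures matplotlib 3.10.9. Promoters came from RefSeq on GRCm38.p6.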

Additional observations from a re-analysis of the deposited data

Results flagged for a closer look

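In groups of 4 untreated libraries, 1 library was flagged when its gap to the nearest other made up most of the group's range. Of 95 groups of members checked, 5 held such a library, where 5% are flagged by chance alone. These were Cldn6 at 9.45 CPM in tdTomato+ luminal library 1, Cgn at 178 CPM in GFP+ luminal library 4, Amotl1 at 218 CPM in GFP+ stroma library 2, Lsr at 68.9 CPM in GFP+ luminal library 3 and Cxadr at 11 CPM in GFP+ stroma library 2. All but Amotl1, which was low, were higher than the rest of their group. GFP+ stroma library 2 also had the highest luminal epithelium marker sum of its group, 88.6 CPM. Among summed markers, the luminal progenitor sum of 53.6 CPM in tdTomato+ stroma library 3, the fibroblast sum of 73.5 CPM in tdTomato+ luminal library 3 and the skeletal-muscle sums of 28.5 CPM in GFP+ luminal library 4 and 30.4 CPM in tdTomato+ luminal library 3 stood apart upward.

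Lsr was picked out because the direct test of the difference in E+P response between luminal subsets called it, at -1.04 log2 (GFP+ minus tdTomato+). Cldn10 (-2.48), Tjp3 (0.78) and Cxadr (0.53) were picked out because the log2 difference of GFP+ minus tdTomato+ cells in luminal libraries was of 1 sign in all 7 mice and of the opposite sign in stroma in all 7 mice. In stroma Tjp3 (adjusted p 0.0282) and Cxadr (adjusted p 0.0166) were not called, and whether the difference itself depended on lineage was not tested.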

How the results depend on the processing

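For members called with all libraries, 888 changes were estimated under other settings: 802 kept direction and side of the threshold, 86 kept direction but fell short of it and 0 turned. Members not called are outside this count; some gained a call under other settings, and Amotl1 in luminal against stroma ran from -0.39 to 0.06, called only without untreated mouse 4 (adjusted p 0.00213). Members called with each mouse left out in turn ranged from 28 to 29 for luminal against stroma (28 with all mice), 10 to 17 for GFP+ against tdTomato+ luminal (17), 8 to 13 for the stromal subsets (12), 0 to 2 for E+P in GFP+ luminal (1), 2 to 7 for E+P in tdTomato+ luminal (6), 0 to 1 for the difference in response between luminal subsets (1), 0 to 0 for E+P in GFP+ stroma (0) and 0 to 1 for E+P in tdTomato+ stroma (0). Over all genes tested, in the same order, these were 11408 to 11986 (12427), 3933 to 5336 (5745), 6004 to 7166 (7466) and 169 to 962 (985). From E+P in tdTomato+ luminal cells onward they were 1140 to 2144 (2327), 33 to 314 (376), 16 to 46 (41) and 1 to 85 (22). When GFP+ luminal cells were compared by treatment, DESeq2 called 3, a fit of only the 2 groups 0, replicate number as a block 2 (these numbers name different mice in the treated and untreated arms, so this block pairs unrelated animals) and an adjusted p under 0.05 gave 4. Over all genes tested, DESeq2 called 2035, the fit of only the 2 groups 560 and the replicate block 904, against 985 in the main fit. For the difference in response, library size only gave 0, no low-count filter 2, DESeq2 2 and an adjusted p under 0.05 gave 3. Library size only called 368 of all genes tested there, no low-count filter 435 and DESeq2 1014, against 376 in the main fit. For E+P in GFP+ stroma, no low-count filter gave 2, DESeq2 1 and a fit of only the 2 groups 1. These settings called 459, 192 and 187 of all genes tested, against 41 in the main fit. In tdTomato+ stroma, no low-count filter gave 6, DESeq2 3 and an adjusted p under 0.05 gave 1. There, no low-count filter called 840 and DESeq2 384 of all genes tested, against 22 in the main fit. Without the low-count filter, Cldn1 and Cldn8 lost their calls between luminal subsets, Cldn15 between stromal subsets, Patj for E+P in GFP+ and Cldn8 for E+P in tdTomato+ luminal cells; limma-voom lost Marveld2 and Crb3 between stromal subsets. Mouse as a block changed no other call than those named with the results. Leaving out both untreated tdTomato+ stroma libraries with the most luminal epithelium markers was added after the data were seen. Then 28 members were called for luminal against stroma, 9 between stromal subsets and 0 for E+P in either stroma. Of all genes tested, 12465 of 20350 were called for luminal against stroma and 7127 of 18517 between stromal subsets. For E+P it was 62 in GFP+ and 129 in tdTomato+ stroma, of 18517 each. With 3 and 4 mice per arm, small changes could be missed.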
